A study of Homo sapiens with 5 samples.

Results

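The genes described here encode the proteins of the cytosolic ribosome. They were taken by name from a deposited table of 58174 genes: RPL or RPS followed by digits with an optional A, X or L, the RPLP genes of the stalk, and RPSA, with pseudogene names left out. The rule gave 81 genes, 49 of the large subunit and 32 of the small subunit. FAU, which encodes a fusion protein that yields a ribosomal protein, and paralogues such as RPL22L1 fall outside the rule and are described further on. The 5 RNA-seq libraries came from Ishikawa, an established cell line grown from a human endometrial carcinoma. In 3 libraries (sh-LINC00958) the cells had been infected with a lentivirus carrying a short hairpin RNA against the long non-coding RNA LINC00958, and in 2 (sh-NC) the labels give a negative control. Per the labels, stable infection was selected with puromycin at 2.5 µg/ml, beginning 72 h after the virus was added. The model is therefore 1 cell line. How many hairpins were used, and their sequences, is not stated in the sources used here. Nor does any label say that replicates were separate cultures, so the p-values reflect the spread of these libraries alone, and that spread may be technical.

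Each ribosome holds 1 copy of nearly every ribosomal protein, with the acidic stalk proteins as the known exception, so cells make these proteins in like amounts. Their messenger RNAs are among the most abundant in a dividing cell. They begin with a 5′ terminal oligopyrimidine (TOP) tract, a C followed by a run of C and U, through which mTOR and the RNA-binding protein LARP1 control their translation and stability together. Free ribosomal proteins also signal: RPL5 and RPL11, bound to 5S ribosomal RNA, can block MDM2, the ubiquitin ligase that degrades p53.

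The start sites are shown because the TOP tract is the sequence feature the family shares. Each line gives 20 bases before and 20 bases from the RefSeq transcript start (GRCh38.p14), 5′ to 3′ on the gene's strand, as DNA, with the longest run of C and T in capitals. The genes shown had large positive or negative fold changes in their subunit or, for RPS6 and RPL24, groups that did not overlap, and were chosen after their values were seen.
RPL11 (chr1:23691786-23691825, plus strand): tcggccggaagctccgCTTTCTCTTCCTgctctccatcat
RPS28 (chr19:8321476-8321515, plus strand): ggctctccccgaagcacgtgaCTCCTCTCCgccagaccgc
RPS27 (chr1:153990742-153990781, plus strand): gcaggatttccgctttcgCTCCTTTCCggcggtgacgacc
RPL37A (chr2:216498824-216498863, plus strand): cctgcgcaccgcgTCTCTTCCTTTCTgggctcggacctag
RPL38 (chr17:74203658-74203697, plus strand): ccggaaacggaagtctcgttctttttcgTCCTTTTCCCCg
RPL22 (chr1:6199576-6199615, minus strand): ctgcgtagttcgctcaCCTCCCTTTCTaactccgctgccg
RPL24 (chr3:101686699-101686738, minus strand): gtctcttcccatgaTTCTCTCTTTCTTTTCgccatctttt
RPS6 (chr9:19380217-19380256, minus strand): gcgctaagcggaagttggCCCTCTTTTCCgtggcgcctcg
RPS27L (chr15:63157458-63157497, minus strand): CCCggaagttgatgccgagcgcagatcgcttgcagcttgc

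The longest run in these windows was 12 bases in RPL11, 9 in RPS28 and RPS27, and 11 in RPL22 and RPS6. RPS27L had none longer than 3. The run began at position -4 from the listed start in RPL11 and at position 9 in RPL38. The windows cover both sides of the listed start, so the capitals do not show that a message begins with the run. Of the 79 members that could be tested, 63 had a start sequence in the RefSeq table, 10 of them with more than 1 start. A run of at least 8 pyrimidines on the gene's strand within 20 bases of a listed start was found in 56 of these 63 (88.9%), against 20.9% of all 27305 genes with a sequence. Within the 300 bases around the start, the letters CCGGAAG on either strand, the core of many ETS factor motifs, occurred in 36.5% of members and 12.2% of all genes. TATAAA occurred in 7.94% and 14.0%. The 56 genes with the long run had a median log2 fold change of 0.13 and the other 7 had 0.11 (47 of 56 and 4 of 7 positive). With the first listed start of each gene alone, a definition used first and replaced after its result had been seen, 52 of 63 members and 17.3% of all genes had such a run.

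The hairpin libraries carried less of the targeted RNA: LINC00958 measured 67.2, 67.1 and 58.4 TPM in sh-LINC00958 and 119.3 and 137.4 TPM in sh-NC. TPM is a level scaled for gene length and for the total of its library, so each value is a share of what that library holds. On the first principal component of all tested genes (51.1% of variance) replicate 2 of sh-LINC00958 stood at -10.1, the other 2 hairpin libraries at -24.3 and -30.7, and the sh-NC libraries at 29.9 and 35.2. Replicate 2 thus lay nearest to the controls, although its LINC00958 level equalled that of replicate 1, and counts of calls that change without it are given both ways. It was singled out by its place in these same data, so calls added without it are not independent support. The 7 epithelial markers looked up were all present and summed to 1672 to 1862 TPM in sh-LINC00958 and 1589 to 1636 TPM in sh-NC. The 6 endometrial markers summed to 1115 to 1140 TPM and 1284 to 1297 TPM, with ESR1, the estrogen receptor gene, at 0.0149 TPM in 1 library and at 0 in the others. Fibroblast markers summed to at most 5.87 TPM and blood and endothelial markers to at most 6.90 TPM in any library, with DCN, CD3E, HBB and KDR at 0 throughout.

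Ribosomal protein messages took a larger share of TPM in all 3 hairpin libraries than in either control, by a small margin in replicate 2. The 81 genes made up 13.3%, 11.7% and 12.9% of TPM in sh-LINC00958 replicates 1, 2 and 3, and 11.5% and 11.6% in the 2 sh-NC libraries. The group means were 12.6% ± 0.826 (SD, n = 3) and 11.5% ± 0.0701 (SD, n = 2). Large-subunit genes summed to 7.72%, 6.77% and 7.50% in sh-LINC00958, against 6.68% and 6.79% in sh-NC, so replicate 2 lay between the controls. Small-subunit genes summed to 5.54%, 4.91% and 5.42%, against 4.78% and 4.78%, and here all 3 hairpin libraries were above both controls. The ratio of large to small subunit sums was 1.39, 1.38 and 1.38 in sh-LINC00958 and 1.40 and 1.42 in sh-NC. Mitochondrially encoded genes, the other large fraction, took 12.9%, 14.6% and 14.1% in sh-LINC00958 and 14.97% and 13.7% in sh-NC. In bulk RNA, fewer cells with a message and less of that message per cell cannot be told apart.

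**Figure D1:**
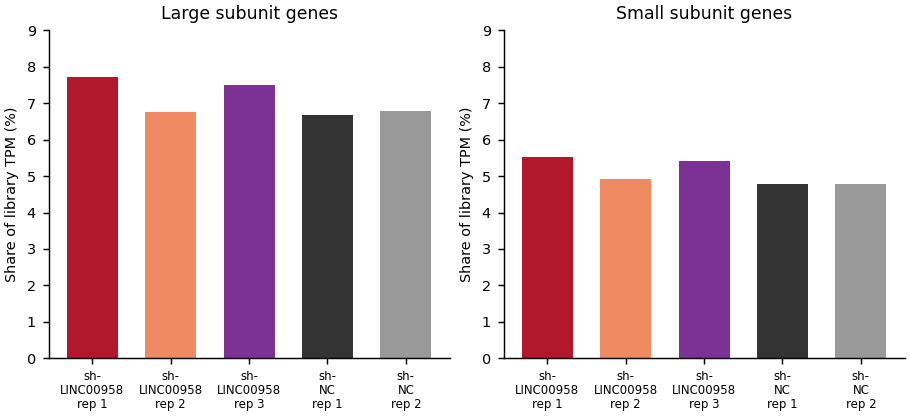
Share of each library's TPM (y axis, %) taken by large-subunit genes (left) and small-subunit genes (right), 1 bar per library. Replicates 1 and 3 of sh-LINC00958 stand above both sh-NC bars in both panels, and replicate 2 (large subunit, 6.77%) stands between them on the left.

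Gene by gene, the family shifted upward by a small amount and few members passed a test. The comparison used limma, a linear model with moderated variances, on log2(TPM + 1) across all 17049 genes with a mean TPM of at least 1. Of the 81 members, 79 passed that filter. The median log2 fold change (sh-LINC00958 over sh-NC) was 0.12 over 47 large-subunit genes and 0.14 over 32 small-subunit genes, against 0.0014 over all genes tested. Positive fold changes were seen in 62 of 79 members (78.5%), against 50.2% of all genes tested. At an adjusted p (Benjamini-Hochberg over all genes tested) under 0.05, 1 member rose (RPL11) and 0 fell, against 4.12% of all genes called higher and 5.68% called lower. At an unadjusted p under 0.05 there were 18 members, 17 higher and 1 lower. Among all 17049 genes tested, 2446 were higher and 2784 lower at that level.

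Member fold changes ran from -0.31 to 0.60, while those of all genes tested ran from -6.30 to 4.44. The median absolute difference between the 2 sh-NC libraries was 0.072 over the members and 0.14 over all genes tested. The 3 sh-LINC00958 values lay above both sh-NC values in 28 members (35.4%), where 24.4% of all genes tested did so, and below both in 9 (11.4%), where 25.5% did. Small-subunit genes had 15 above and 2 below among 32, and large-subunit genes 13 above and 7 below among 47.

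**Figure D2:**
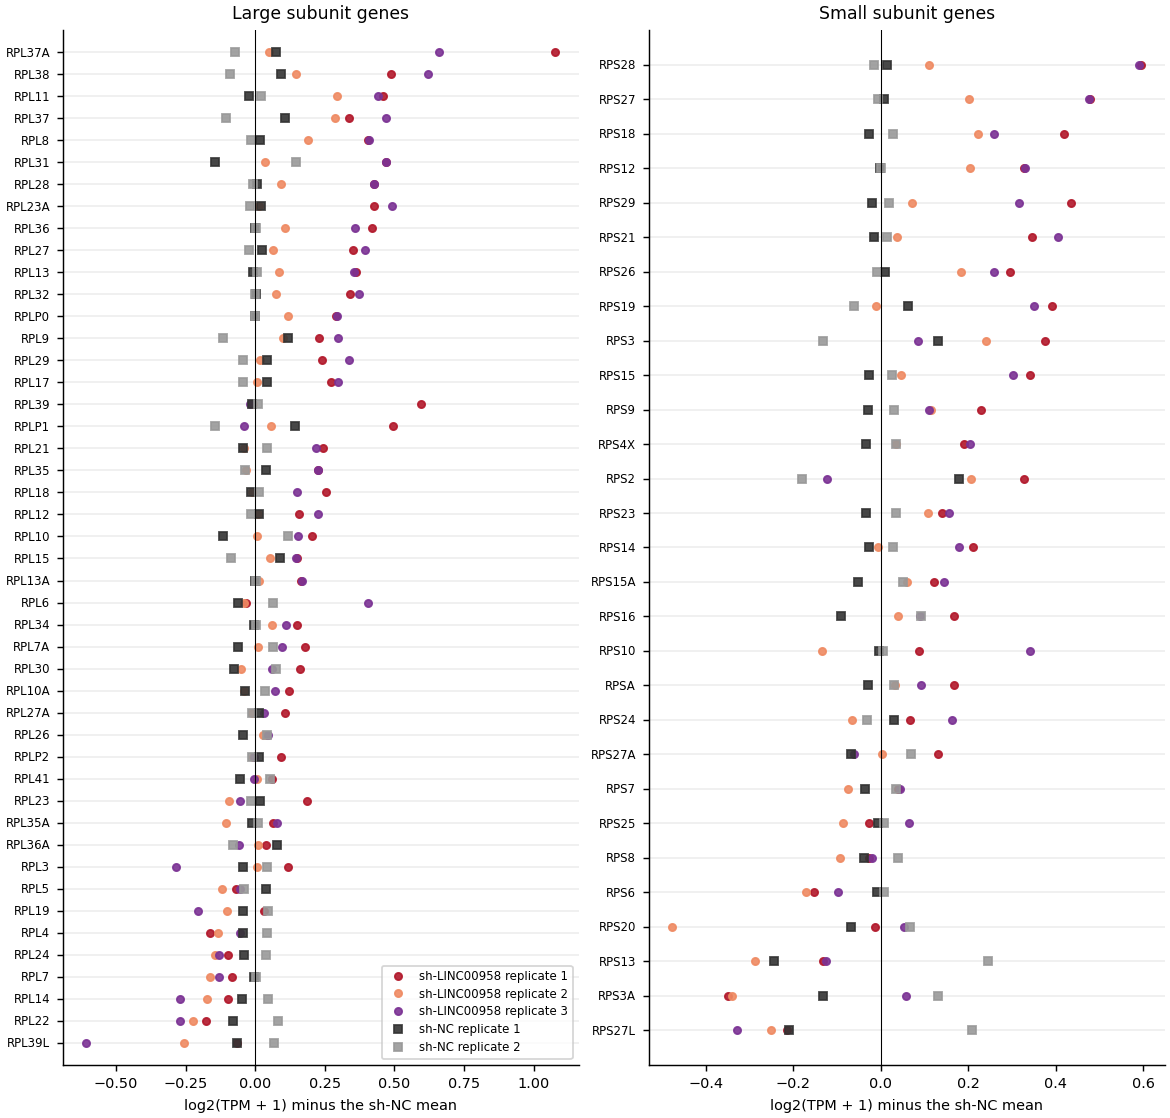
Difference of each library from the sh-NC mean (x axis, log2(TPM + 1) units) for tested large-subunit genes (left) and small-subunit genes (right), ordered by fold change, with a few genes not shown; circles are sh-LINC00958 libraries and squares sh-NC libraries. Most circles of replicates 1 and 3 lie right of 0, while those of replicate 2 lie close to the squares.

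RPL11, which binds 5S ribosomal RNA and MDM2, was the member with the smallest p. The gene (ENSG00000142676, GRCh38 chromosome 1, 23691742 to 23696835, plus strand) measured 2600, 2317 and 2570 TPM in sh-LINC00958 and 1863 and 1920 TPM in sh-NC. Every hairpin library was above every control library. RPL11 averaged 2496 ± 156 TPM in sh-LINC00958 (SD, n = 3) and 1891 ± 40.5 TPM in sh-NC (SD, n = 2), giving a log2 fold change of 0.40 (standard error 0.0764, limma adjusted p = 0.0347) and a 95% interval from 0.21 to 0.59. A two-sided exact permutation test over the 5 libraries gave p = 0.1, the smallest this design allows. The fold change of RPL11 stayed between 0.37 and 0.45 when 1 library was left out, but its limma adjusted p was 0.111 without sh-LINC00958 replicate 1, 0.0916 without replicate 3, and 0.172 or 0.165 when the first or the second sh-NC library was left out. RPL5, its partner in the 5S particle, measured 1404, 1356 and 1416 TPM in sh-LINC00958 and 1513 and 1431 TPM in sh-NC. Its hairpin values lay just below the controls (log2 fold change -0.08, limma adjusted p = 0.443, 95% interval -0.24 to 0.08). The sign of RPL5 depended on how transcript GC content and length were corrected, as given further on, and the difference between RPL5 and RPL11 was not tested.

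Other large-subunit genes had changes of like size without passing the test. RPL37A measured 935, 458 and 700 TPM in sh-LINC00958 and 466 and 420 TPM in sh-NC. It had the largest fold change of the family, 0.60, but replicate 2 lay between the controls and the interval ran from -0.10 to 1.29 (limma adjusted p = 0.213). RPL38, whose loss in mice disturbs the translation of Hox messages, had 1397, 1101 and 1532 TPM in sh-LINC00958 against 1060 and 934 TPM in sh-NC (log2 fold change 0.42, limma adjusted p = 0.128, 95% interval 0.05 to 0.79). RPL37 had 572, 552 and 627 TPM in sh-LINC00958 against 487 and 420 TPM in sh-NC (0.37, limma adjusted p = 0.0663). RPL8, a protein near the peptidyl transferase centre, had 2043, 1762 and 2050 TPM against 1562 and 1526 TPM (0.33, limma adjusted p = 0.0674). In RPL38, RPL37 and RPL8 the groups did not overlap and none passed the test.

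The stalk that recruits translation factors is built from RPLP0, RPLP1 and RPLP2. RPLP0 measured 2777, 2464 and 2780 TPM in sh-LINC00958 and 2270 and 2268 TPM in sh-NC (log2 fold change 0.23, limma adjusted p = 0.111, 95% interval 0.04 to 0.43). RPLP1 measured 1496, 1105 and 1031 TPM in sh-LINC00958 and 1172 and 961 TPM in sh-NC, and its high value came from replicate 1 alone. RPLP2 measured 1147, 1068 and 1073 TPM in sh-LINC00958 and 1084 and 1066 TPM in sh-NC, with overlapping groups and a log2 fold change of 0.03 (95% interval -0.13 to 0.19). Only RPLP0 of the 3 had groups that did not overlap.

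The highest levels per length in the large subunit belonged to RPL41, RPL12 and RPL27. RPL41, which encodes the smallest ribosomal protein, had 5847, 5642 and 5594 TPM in sh-LINC00958 against 5404 and 5827 TPM in sh-NC, and its log2 fold change was 0.02 (95% interval -0.15 to 0.19). RPL12 had 3801, 3439 and 3984 TPM against 3444 and 3378 TPM (0.13), with replicate 2 inside the control range. RPL27 had 3506, 2871 and 3606 TPM against 2792 and 2701 TPM (0.27, limma adjusted p = 0.168), with every hairpin library above the controls. Level and fold change were unrelated across the 79 members (Spearman's rho -0.002, a description over genes that share the same 5 libraries).

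In the small subunit, 15 of 32 genes (46.9%) stood above the controls in every hairpin library, against 24.4% of all genes tested. RPS12, which has the smallest p of this subunit, measured 2237, 2052 and 2240 TPM in sh-LINC00958 and 1780 and 1784 TPM in sh-NC (log2 fold change 0.29, standard error 0.0694, limma adjusted p = 0.056, 95% interval 0.12 to 0.46). When only genes with a mean TPM of at least 5 were tested, the limma adjusted p of RPS12 was 0.0439, in a fit that called 2 members higher and 0 lower, against 6.94% and 8.99% of all genes tested. RPS27 measured 4086, 3372 and 4081 TPM in sh-LINC00958 and 2947 and 2920 TPM in sh-NC (0.39, 95% interval 0.13 to 0.64, limma adjusted p = 0.0685). RPS26, mutated in some patients with Diamond-Blackfan anemia, measured 1184, 1097 and 1156 TPM in sh-LINC00958 and 971 and 959 TPM in sh-NC (0.25, limma adjusted p = 0.0686). The groups of all 3 genes were apart, with replicate 2 the lowest of its group each time.

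RPS28 and RPS27 were among the 3 largest fold changes of the small subunit. RPS28 (GRCh38 chromosome 19, 8321158 to 8323340) had 433, 309 and 431 TPM in sh-LINC00958 against 289 and 283 TPM in sh-NC (log2 fold change 0.43, limma adjusted p = 0.135, 95% interval 0.04 to 0.82). Replicates 1 and 3 agreed closely in RPS28 while replicate 2 stood just above the controls. RPS19, the gene most often mutated in Diamond-Blackfan anemia, had 537, 407 and 522 TPM in sh-LINC00958 against 427 and 392 TPM in sh-NC, with overlapping groups (0.24, limma adjusted p = 0.278).

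RPSA, also described as a laminin receptor, measured 3015, 2749 and 2861 TPM in sh-LINC00958 and 2630 and 2742 TPM in sh-NC (log2 fold change 0.10, limma adjusted p = 0.394). RPS3, at the messenger RNA entry site, measured 693, 631 and 566 TPM in sh-LINC00958 and 585 and 487 TPM in sh-NC (0.23, limma adjusted p = 0.243). RPS24 measured 4068, 3713 and 4348 TPM in sh-LINC00958 and 3969 and 3800 TPM in sh-NC (0.06, limma adjusted p = 0.704). Overlap of the groups was seen for RPS3 and RPS24. RPS2, the most abundant small-subunit message per length, measured 5740, 5282 and 4204 TPM in sh-LINC00958 and 5185 and 4043 TPM in sh-NC, so its libraries differed more within each group than between the groups.

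**Figure D3:**
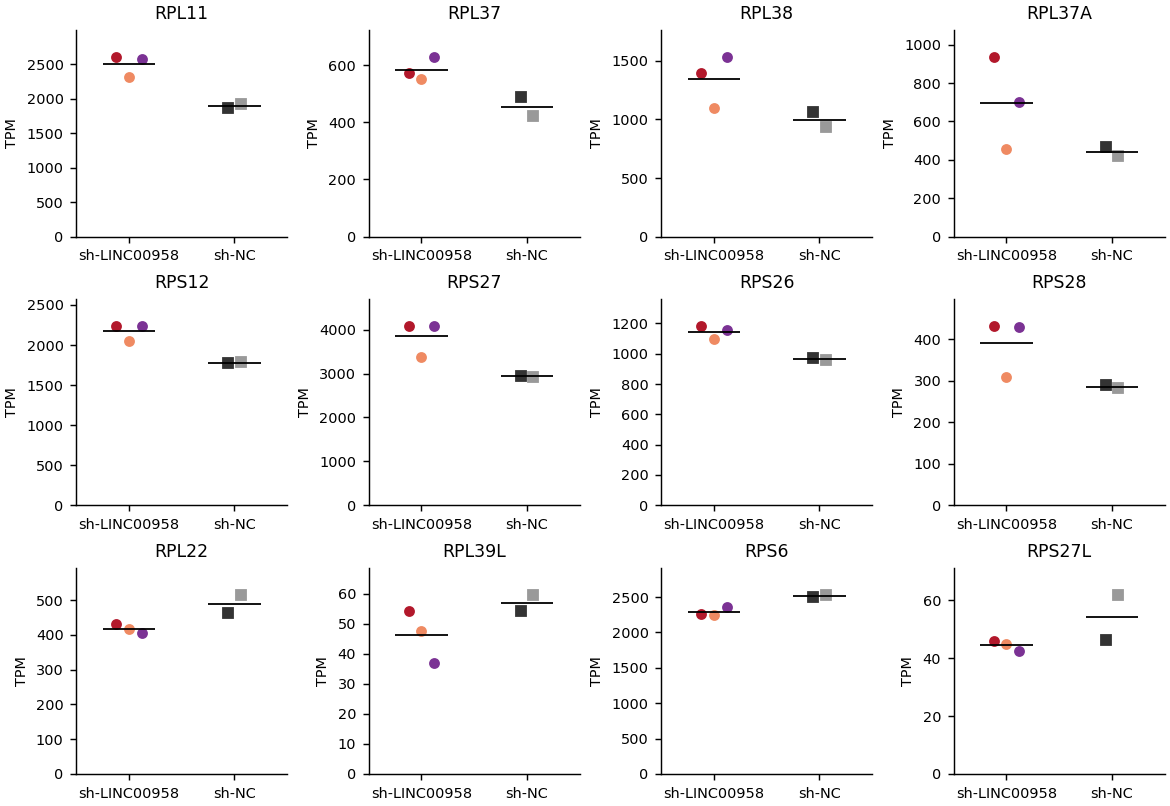
TPM of 12 member genes (y axes from 0) in each library, with sh-LINC00958 left (circles: red replicate 1, orange replicate 2, purple replicate 3) and sh-NC right (squares: dark replicate 1, light replicate 2); bars are group means. RPL11, RPS12 and RPS27 have separate groups with replicate 2 lowest, and RPL22 and RPS6 are lower in sh-LINC00958. In RPS27L only sh-NC replicate 2 stands clearly apart.

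A minority of members was lower in the hairpin libraries, and none passed the test. Every sh-LINC00958 value lay below both sh-NC values in 9 members (11.4%), a smaller share than the 25.5% of all genes tested. These 9 were RPL4, RPL5, RPL7, RPL14, RPL22, RPL24, RPL39L, RPS6 and RPS27L. In RPL39L and RPS27L, sh-LINC00958 replicate 1 nearly equalled sh-NC replicate 1 (54.355 against 54.376 TPM, and 46.0 against 46.2 TPM). RPL22, a dispensable subunit protein with a paralogue, measured 432, 418 and 404 TPM in sh-LINC00958 and 462 and 516 TPM in sh-NC. Its log2 fold change of -0.22 (limma adjusted p = 0.119, 95% interval -0.41 to -0.03) was the only one of the family whose interval lay below 0. RPL14 measured 359, 340 and 318 TPM in sh-LINC00958 and 371 and 396 TPM in sh-NC (-0.18, limma adjusted p = 0.191). RPS6, the substrate of the S6 kinases downstream of mTOR, measured 2267, 2240 and 2355 TPM in sh-LINC00958 and 2508 and 2536 TPM in sh-NC (-0.14, 95% interval -0.29 to 0.01, limma adjusted p = 0.184). RPL7 measured 1382, 1309 and 1339 TPM in sh-LINC00958 and 1461 and 1468 TPM in sh-NC (-0.12, limma adjusted p = 0.229). In RPL14, RPS6 and RPL7 the hairpin libraries were lower by small amounts that the controls did not overlap. RPS3A measured 969, 975 and 1284 TPM in sh-LINC00958 against 1127 and 1351 TPM in sh-NC (-0.21, limma adjusted p = 0.398). RPS13 measured 1019, 915 and 1023 TPM in sh-LINC00958 against 942 and 1322 TPM in sh-NC (-0.18, limma adjusted p = 0.457), and without sh-NC replicate 2, which held the high value, the RPS13 fold change was 0.06. Both of these genes had overlapping groups.

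Paralogue pairs were present at unequal levels. RPS27L, a target gene of p53 that encodes a close relative of RPS27, measured 46.0, 44.9 and 42.5 TPM in sh-LINC00958 and 46.2 and 62.0 TPM in sh-NC, far below RPS27. Only sh-NC replicate 2 stood clearly above the others (log2 fold change of RPS27L -0.26, limma adjusted p = 0.251, 95% interval -0.60 to 0.07). RPL39, which lines the exit tunnel, measured 2233, 1471 and 1461 TPM in sh-LINC00958 and 1468 and 1490 TPM in sh-NC, so only replicate 1 stood apart (log2 fold change 0.19, limma adjusted p = 0.552). Without sh-LINC00958 replicate 1 the RPL39 fold change was -0.01. RPL39L, its paralogue known from testis and tumours, measured 54.4, 47.6 and 37.1 TPM in sh-LINC00958 and 54.4 and 59.7 TPM in sh-NC (-0.31, limma adjusted p = 0.266). RPL10L was listed at 0 in every library but sh-NC replicate 1 (0.106 TPM). RPL3L, a muscle form in mice and humans, stayed between 0.282 and 0.702 TPM, and these 2 genes are the members that did not reach the level filter.

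Outside the name rule, RPL26L1 was the one gene of 7 tested that rose. RPL26L1, a paralogue of RPL26, measured 145, 110 and 157 TPM in sh-LINC00958 and 74.9 and 81.8 TPM in sh-NC (log2 fold change 0.79, limma adjusted p = 0.0382, 95% interval 0.40 to 1.18). RPL26 itself measured 1804, 1787 and 1805 TPM in sh-LINC00958 and 1699 and 1803 TPM in sh-NC (0.04, limma adjusted p = 0.710). After removal of the GC content and length trend described further on, RPL26L1 was not called. RPL22L1 had a log2 fold change of -0.01 (limma adjusted p = 0.936) and a mean of 617 ± 60.9 TPM (SD, n = 3) in sh-LINC00958 and 622 ± 25.3 TPM (SD, n = 2) in sh-NC, so it exceeded RPL22 in both groups. RPL36AL (-0.06) and RPL36A (-0.0029) were near 0, as were the fusion gene FAU (0.04) and the ribosome-bound scaffold RACK1 (0.06). RPL7L1 varied widely, with 88.7, 86.9 and 146 TPM in sh-LINC00958 and 79.4 and 165 TPM in sh-NC. Rows named as ribosomal protein pseudogenes, 953 in number, summed to 4694, 4117 and 4879 TPM in sh-LINC00958 and 4099 and 4022 TPM in sh-NC. How reads shared between these genes and their near-identical pseudogenes were assigned is not stated in those sources, so the levels of members with many copies are uncertain.

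Among the fits that left out 1 library, the number of members called changed most without replicate 2 of sh-LINC00958. The median difference of replicate 2 from the sh-NC mean was 0.01 over the 79 members, against 0.19 in replicate 1 and 0.15 in replicate 3. Replicate 2 was the lowest of the 3 hairpin libraries in 63 members and the highest in 0. It lay above both controls in 30 members, below both in 21 and between them in 28, while replicate 1 lay above both in 62 and replicate 3 in 53. The difference was similar for the subunits, with replicate 2 lowest in 37 of 47 large-subunit genes and 26 of 32 small-subunit genes. These counts were made for members only, so they do not show whether members differ here from other genes. On the first principal component of all tested genes, too, the hairpin library nearest to the controls was replicate 2.

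Without that library, 25 members rose and 0 fell, where 5.31% of all genes tested were called higher and 8.74% lower. Leaving out the hairpin library nearest to the controls favours a wider group difference, so this count is not independent support for a rise. The 13 large-subunit genes included RPL8, RPL11, RPL23A, RPL27, RPL28, RPL37A, RPL38 and RPLP0. The 12 small-subunit genes included RPS12, RPS19, RPS21, RPS26, RPS27, RPS28 and RPS29. RPS28 had the smallest adjusted p in that fit (log2 fold change 0.59, limma adjusted p = 0.0150) and RPL37A the largest fold change (0.87, limma adjusted p = 0.0361). The median over the members was 0.19. The count was 0 when any of the other 4 libraries was left out, fits in which only 0.0587% to 0.656% of all genes tested were called higher, so these zeros say nothing particular about the members. When limma weighted the libraries by their estimated quality, with all 5 kept, 14 members rose, against 8.38% of all genes tested.

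Transcript GC content and length moved with the fold changes. Members had a median transcript length of 683 bases and a median GC content of 50.4%, against 1450 bases and 49.4% over all genes tested. Across the members, Spearman's rho with the fold change was 0.30 for GC content and -0.26 for length, and across all genes tested 0.48 and -0.11; these describe genes that share the same libraries. After each library's trend on GC content and length had been removed, the median fold change of the members was 0.02 (large subunit 0.02, small subunit 0.05), against -0.02 over all genes tested. Positive fold changes then made up 58.2% of members and 47.7% of all genes. RPL11 stayed called at 0.38 (limma adjusted p = 0.0489), and 0 members fell, where 2.16% of all genes tested were called higher and 2.56% lower. RPL8 had 0.11 after the removal and RPS28 had 0.31. Here GC content and length were medians over a gene's coding transcripts, a definition adopted after the first one, the longest transcript of each gene, had given a different result. With the longest transcript the members' median was 0.08 (large subunit 0.06, small subunit 0.08) and 68.4% were positive. Over all genes tested that median was -0.02 and 47.1% were positive. RPL11 was again the member called. RPL5 then had 0.22 and RPL7 had 0.10, both with the opposite sign, and neither was called. How far the upward shift of the family remains after such a correction thus depended on the transcript chosen.

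**Figure D4:**
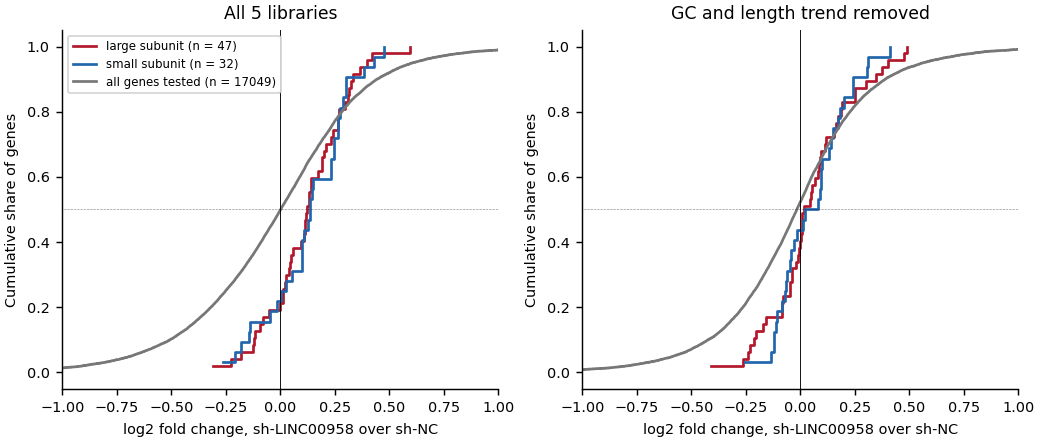
Cumulative share of genes (y axis) by log2 fold change of sh-LINC00958 over sh-NC (x axis) for large-subunit genes, small-subunit genes and all genes tested, before (left) and after (right) removal of the GC content and length trend. On the left both subunit curves lie right of the curve of all genes over most of the range, with medians of 0.12 and 0.14, and meet it among the larger positive values; on the right their medians are 0.02 and 0.05.

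Because a common shift hides how members differ from each other, each library was also scaled to the summed TPM of the 81 genes, an alternative added after the data had been seen. On that scale 0 members were called higher or lower with all libraries, where 1.09% and 3.75% of all genes tested were called. RPL11 had a relative log2 fold change of 0.27 (limma adjusted p = 0.0563), RPL22 had -0.35 (0.0811) and RPS6 had -0.27 (0.0775). Without sh-LINC00958 replicate 2, 8 members were higher relative to the family and 5 lower, where 2.81% and 18.5% of all genes tested were called. Those higher were RPL8, RPL11, RPL23A, RPL28, RPL36, RPL37A, RPS27 and RPS28. Those lower were RPL7, RPL14, RPL22, RPL24 and RPS6, with relative log2 fold changes between -0.29 and -0.41. The median of all genes tested was -0.11 on this scale, and -0.17 without that library.

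Many ribosomal protein genes carry small nucleolar RNAs in their introns. By GENCODE 29, 28 of the 79 tested members hold an annotated snoRNA gene on the same strand. The host genes had a median log2 fold change of 0.12, with 0 called, and the other 51 had 0.13, with 1 called. Both sets had positive fold changes in most genes, 21 of 28 hosts and 41 of 51 others.

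Genes that make, carry or regulate ribosomes were compared from lists of the pathway, with the backgrounds of 4.12% called higher and 5.68% lower as above. Of 59 rows of ribosome biogenesis factors 5 rose and 3 fell, with a median log2 fold change of 0.01. Without sh-LINC00958 replicate 2 the calls were 7 higher and 4 lower, against 5.31% and 8.74% of all genes tested, with BYSL (0.80) and the fibrillarin gene FBL (0.37) added above and GNL3 (-0.45) below. NOLC1, a nucleolar chaperone of snoRNPs, measured 108, 104 and 136 TPM in sh-LINC00958 and 56.1 and 58.8 TPM in sh-NC (0.99, limma adjusted p = 0.0178). TCOF1, the treacle protein that acts in ribosomal RNA transcription, measured 66.7, 62.4 and 67.2 TPM in sh-LINC00958 and 37.5 and 37.0 TPM in sh-NC (0.80, limma adjusted p = 0.0103). RRP12 (0.59), the box H/ACA protein gene NOP10 (0.40) and PES1 (0.38) rose too, and the nucleolin gene NCL (-0.43), the box C/D protein gene NOP58 (-0.43) and the kinase gene RIOK1 (-0.40) fell. NOLC1, TCOF1, RRP12, NOP10 and NCL stayed called after removal of the GC content and length trend, and PES1, NOP58 and RIOK1 did not. In that fit 5 of the 59 rows were called higher and 1 lower, against 2.16% and 2.56% of all genes tested. The higher ones thus included a row not called in the main fit.

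Of 15 genes of RNA polymerase I and its factors, 2 fell and 0 rose. RRN3, which brings the polymerase to the ribosomal DNA promoter, measured 39.1, 42.5 and 35.8 TPM in sh-LINC00958 and 66.4 and 60.6 TPM in sh-NC (log2 fold change -0.69, limma adjusted p = 0.0229). TAF1D, a subunit of its selectivity factor, measured 77.6, 85.9 and 73.6 TPM in sh-LINC00958 and 129 and 126 TPM in sh-NC (-0.68, limma adjusted p = 0.0181). Both stayed called after removal of the GC content and length trend. The list's median was -0.18. Without sh-LINC00958 replicate 2, 3 fell and 0 rose, with TWISTNB (-0.53), a subunit of the polymerase, added.

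Translation factors and other genes with TOP messages moved in both directions. Of 23 tested, 3 rose and 2 fell, and their median log2 fold change was -0.09. The elongation factor gene EEF1D (0.44), the initiation factor gene EIF3F (0.52) and NACA (0.28), a subunit of the nascent chain complex, rose. The importin gene IPO7 (-0.43) and EIF3E (-0.38) fell. Only IPO7 stayed called after removal of the GC content and length trend. Without sh-LINC00958 replicate 2 the calls were 2 higher and 4 lower: EIF3F kept its fold change (0.53) but not its call (limma adjusted p = 0.0601), and BTF3 (-0.31) and the nucleophosmin gene NPM1 (-0.73) were added below. Among 16 chaperones and importers of ribosomal proteins, NACA rose and IPO7 and BCCIP (-0.51) fell; without that library 1 rose and 3 fell, with BTF3 added.

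Genes listed for the mTOR pathway and TOP control split. The list held 30 tested genes, among them transcription factor genes such as MYC, MAX and MXD4. Of the 30, 3 rose and 4 fell. Without sh-LINC00958 replicate 2, 5 rose and 6 fell. Those added were EIF4A1 (0.60) and MXD4 (0.43) above and LARP4 (-0.75) and the S6 kinase gene RPS6KB1 (-0.46) below. RHEB, the GTPase that activates mTOR complex 1, measured 138, 134 and 132 TPM in sh-LINC00958 and 231 and 291 TPM in sh-NC (log2 fold change -0.94, limma adjusted p = 0.0138). LARP1, which binds the TOP tract, measured 181, 184 and 177 TPM in sh-LINC00958 and 240 and 245 TPM in sh-NC (-0.42, limma adjusted p = 0.0235). EIF4EBP2 (-0.51), a translation repressor, and TIA1 (-0.60), an RNA-binding protein of stress granules, fell as well. EIF4G1 (0.38), the mTOR complex genes RPTOR (0.47) and AKT1S1 (0.37) rose. RHEB, LARP1 and EIF4EBP2 stayed called after removal of the GC content and length trend, and the other 4 did not.

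In the list of the 5S particle and p53, 0 of 9 genes were called by limma. An unadjusted p under 0.05 was found for 4 of them, where 2446 of all 17049 genes tested were higher and 2784 lower at that level. The 3 with the smallest p were HEXIM1 (0.38, limma adjusted p = 0.0560), RPF2 (-0.33, 0.0713) and MDM4 (-0.62, 0.0894). Without sh-LINC00958 replicate 2, RPF2 was called lower (-0.37, limma adjusted p = 0.0429) and 0 were called higher. MDM2, the ligase that RPL11 can block, measured 111, 113 and 109 TPM in sh-LINC00958 and 102 and 101 TPM in sh-NC (0.13, limma adjusted p = 0.265), and after removal of the GC content and length trend MDM2 was called higher (0.33, limma adjusted p = 0.0452). Of 23 genes of ribosome quality control 3 fell and 0 rose: the ribosome recycling factor gene ABCE1 (-0.68), the stress kinase gene MAP3K20 (-0.52) and the ubiquitin ligase gene LTN1 (-0.49). Without sh-LINC00958 replicate 2, 1 rose (EDF1, 0.34) and 2 fell, as LTN1 kept its fold change (-0.52) but not its call (limma adjusted p = 0.0509). None of these 3 stayed called after that removal.

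**Figure D5:**
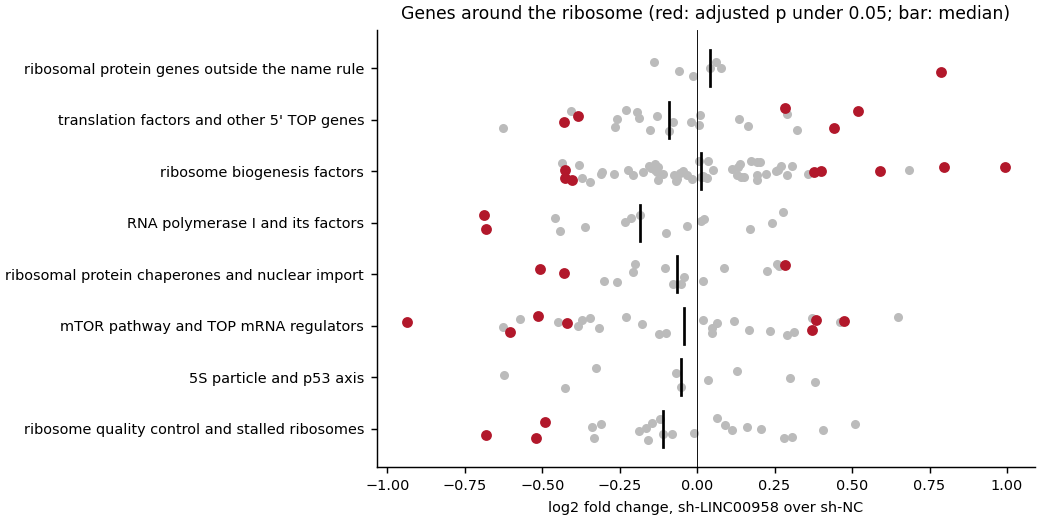
Log2 fold change of sh-LINC00958 over sh-NC (x axis) for each tested gene of 8 lists around the ribosome (rows); red points have a limma adjusted p under 0.05 and the black bar is the list's median. The median of RNA polymerase I genes is -0.18 and that of biogenesis factors 0.01, with called genes on both sides in 4 of the rows.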

How the data were processed

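The values are TPM, deposited by the authors as 1 table with 1 column per library. Tools listed in the submitters' processing notes are StringTie 1.3.3b, HISAT2 2.0, Trimmomatic 0.36 and FastQC 0.11.2, with the build GRCh38; for the annotation release and strand setting the sources used here give nothing. TPM keeps no read depth, so depth is unknown and no counting interval can be given.

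The test was limma 3.58.1 in R 4.3.3 (lmFit, eBayes with a mean-variance trend) on log2(TPM + 1), for genes with a mean TPM of at least 1, two-sided; p-values were adjusted by Benjamini-Hochberg across the 17049 genes in the fit, and the threshold was 0.05. Fold changes on this scale understate the change of low genes. The fit was also run on simulated data with planted changes larger than the fold change of any member. That run therefore does not test how the fit handles changes as small as those of the members. All 81 member IDs were found in GENCODE 29 with the same symbol; GC content and length are medians over a gene's protein-coding transcripts, or over all its transcripts where it has none. Their trend was removed per library with natural splines of 5 degrees of freedom. Start sequences are from RefSeq.

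Named members were those past the threshold, 3 per subunit by smallest p, largest and smallest fold change and level, and genes of known role or paralogy; from each other list, genes past the threshold. Others are named to account for counts; a few genes are counted in totals but not reported here by name. The members and lists were chosen with earlier results of these data known. After first results had been seen, the transcript used for GC content and length was changed from the longest to the median over coding transcripts, start sites from the first listed to any listed, and the scaling to the member total was added; values under both definitions are given.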

Additional observations from a re-analysis of the deposited data

How the results depend on the processing

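The count of members called higher, 1 with all libraries, was 0 without a level filter, 0 without the variance trend, 0 with the replicate block, 0 with the replicate block plus removal of the GC content and length trend, 2 at a mean TPM of at least 5 and 14 with library weights. It ranged from 0 to 25 when 1 library was left out. The replicate block added the replicate number to the model. Only sh-LINC00958 has a replicate 3, so with the block alone that library did not affect the fold changes. The member median was 0.104 with the block and 0.104 without sh-LINC00958 replicate 3. For direction, the block alone is therefore not a separate alternative to leaving that library out. The shares of all genes called higher were 0.587% without a filter, 2.18% without the trend, 6.94% at the stricter filter and 8.38% with weights, and with the replicate block, with or without that removal, 0 of 17049 genes were called higher, so those zeros are the background. No member was called lower under these settings. Subunit medians stayed above 0 in each of them. With quantile normalization the medians were 0.0430 for the large and 0.104 for the small subunit. Positive fold changes then made up 64.6% of members and 51.7% of all genes tested. The median was 0.0175 for the large subunit after removal of the GC content and length trend, and 0.0494 for the small subunit with the replicate block plus that removal; the cause was not tested. With the longest transcript in place of the coding median, an alternative added after the data had been seen, these medians after removal were 0.0596 and 0.0818. Relative to the member total, 0 were higher and 0 lower, but 1 and 0 at a mean TPM of at least 5, 9 and 8 with library weights, and from 0 to 8 and from 0 to 5 when 1 library was left out. Of all genes tested, 1.96% were higher and 7.32% lower at the stricter filter, and 4.52% and 21.7% with weights. TPM carries no depth, so what depth limits is unknown.

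The main fit did not pair the libraries by replicate number. Deviations from the group means correlated at 0.00131 for number 1 and 0.0497 for number 2. With 2 sh-NC libraries, their deviations are equal and opposite for every gene, so these correlations cannot decide whether the numbers pair the libraries.

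Leaving aside the scaling to the member total, which measures a change relative to the family, 22 of 33 named members kept their direction in every alternative. Signs changed in the other 11. On the member scale RPS24, one of the 22, was -0.0750. With quantile normalization the log2 fold change of RPL12 was -0.00082, RPL26 -0.0525, RPLP2 -0.0789 and RPSA -0.0365. After removal of the GC content and length trend RPL36A was 0.0553, RPL41 -0.0386, RPLP2 -0.204 and RPS2 -0.0715. With the longest transcript RPL5 was 0.220, RPL7 0.0956, RPL36A 0.133, RPL41 -0.0579, RPLP2 -0.220 and RPS2 -0.0549. With the replicate block plus the coding-median removal RPL12 was -0.0316, RPL36A 0.0762, RPL41 -0.0203 and RPLP2 -0.156. RPL36A was also 0.0050 with median-ratio scaling, 0.0096 rescaled without member and mitochondrial genes, 0.0140 with library weights and 0.0245 with the replicate block. With 1 library left out RPL26 ranged from -0.0034 to 0.0820, RPL36A from -0.0809 to 0.0751, RPL39 from -0.0129 to 0.293, RPL41 from -0.0335 to 0.0751, RPLP2 from -0.0057 to 0.0460, RPS13 from -0.426 to 0.0631 and RPS2 from -0.0429 to 0.316.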
